A study of Mus musculus with 12 samples.

Results

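The regions described here are 8319 distal intervals with H3K4me1 in C2C12 myoblasts that overlapped no called peak of H3K27ac or H3K4me3, in myoblasts or in myotubes. They come from the MACS peak list of the myoblast H3K4me1 library, which held 67351 intervals. Of these, 66876 were on chromosomes 1 to 19, 30521 of those were 1000 bp or wider, and 22839 of the wide ones were over 2.5 kb from every protein-coding transcription start site (TSS) of the mm9 annotation. The members were 36.4% of the 22839 distal intervals and 27.3% of the 30521 wide ones. Of the other distal intervals, 8475 (37.1%) overlapped a myoblast H3K27ac peak and no H3K4me3 peak, 2641 (11.6%) overlapped an H3K27ac peak of myotubes only, and 3404 (14.9%) overlapped an H3K4me3 peak. The members and these comparison groups were chosen by the peak calls of myoblast H3K4me1 and those of H3K27ac and H3K4me3 in both cell types. Values of these marks are therefore given as a description, and they support nothing. H3K4me2, H3K27me3 and H3K36me3 were not used by the rule.

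Chromatin immunoprecipitation and sequencing (ChIP-seq) was performed for 6 histone marks in 2 states of C2C12, an immortal mouse myoblast line of strain C3H. Myoblasts were near-confluent in 10% serum. Myotubes had been without serum for about 5 days and were freed of unfused cells by mild trypsin treatment. All cells were at passages 15 to 18, none was otherwise treated, and the libraries had fragments of 250 bp and 15 cycles of PCR. There was 1 library per mark and state, with no replicate and no input library among the files used here, so no test between the states was possible and a ratio compares 2 libraries. Libraries held from 1858771 reads (myoblast H3K27ac) to 7033100 (myoblast H3K36me3). At the promoters of 7 myotube genes such as Acta1 and Myh3 the H3K4me3 fold enrichment was 0.922 to 6.00 in the myoblast library and 12 to 83.4 in the myotube library. At 4 genes of cycling cells, such as Mki67, it was 34.1 to 40.6 in myoblasts and 10.1 to 14.7 in myotubes. Markers of other cell types, such as Ptprc of leukocytes and Epcam of epithelia, had 0 to 2.72. Of the 2 myoblast peak lists for H3K27, the one named for H3K27ac was deposited with the H3K27me3 sample and the reverse. The list named for H3K27ac held 36.4 times the mean density of H3K27ac reads and 0.804 times that of H3K27me3, so the lists were used by name.

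H3K4me1 marks enhancers, DNA elements that act on promoters from a distance, both when they are active and when they are not. Enhancers in use usually carry acetylated H3K27 as well. Those with H3K4me1 but no acetylation are commonly called primed, and those that also carry H3K27me3, the mark of Polycomb repression, are called poised. H3K4me2 is found at enhancers and at promoters, H3K4me3 at promoters, and H3K36me3 is laid down along the bodies of genes as they are transcribed. In muscle, enhancers are bound by the E-box factors of the MyoD family together with Mef2, AP-1, Tead and Runx proteins.

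The sequences of 7 members are given first, because the results below return to them. Each is the 300 bases at the midpoint of the member, on the plus strand of mm9, read 5′ to 3′. In the first 5, capitals mark matches on either strand to the E-box (CAGCTG), the AP-1 site (TGACTCA), the Tead site (GGAATG), the Runx site (TGTGGT), the NF1 motif (TTGGCA) or the Mef2 core (TATTTATA). Cradd had the highest H3K4me1, Sh3pxd2a gained the most of it in the myotube library, Tenc1 had the highest H3K36me3, and Cd9 and Tspo lay in peaks of both H3K4me2 and H3K36me3.
Cradd, chr10:94657785-94658084: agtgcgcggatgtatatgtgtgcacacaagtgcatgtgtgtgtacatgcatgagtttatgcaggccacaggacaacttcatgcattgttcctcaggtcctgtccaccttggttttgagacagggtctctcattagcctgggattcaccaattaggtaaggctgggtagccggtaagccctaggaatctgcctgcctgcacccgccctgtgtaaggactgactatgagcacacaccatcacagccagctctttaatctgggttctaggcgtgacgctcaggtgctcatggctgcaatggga
Sh3pxd2a, chr19:47400893-47401192: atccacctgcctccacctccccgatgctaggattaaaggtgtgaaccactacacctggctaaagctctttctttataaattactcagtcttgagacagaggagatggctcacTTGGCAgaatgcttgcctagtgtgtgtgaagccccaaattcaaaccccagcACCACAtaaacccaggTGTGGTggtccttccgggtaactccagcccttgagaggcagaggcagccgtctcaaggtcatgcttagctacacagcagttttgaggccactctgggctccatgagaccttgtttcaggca
Tenc1, chr15:101942686-101942985: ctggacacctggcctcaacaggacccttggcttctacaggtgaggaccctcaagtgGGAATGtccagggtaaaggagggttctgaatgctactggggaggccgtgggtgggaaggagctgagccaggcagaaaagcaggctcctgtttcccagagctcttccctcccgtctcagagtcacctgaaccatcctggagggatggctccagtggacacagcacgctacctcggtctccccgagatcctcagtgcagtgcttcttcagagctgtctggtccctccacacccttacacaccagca
Cd9, chr6:125417392-125417691: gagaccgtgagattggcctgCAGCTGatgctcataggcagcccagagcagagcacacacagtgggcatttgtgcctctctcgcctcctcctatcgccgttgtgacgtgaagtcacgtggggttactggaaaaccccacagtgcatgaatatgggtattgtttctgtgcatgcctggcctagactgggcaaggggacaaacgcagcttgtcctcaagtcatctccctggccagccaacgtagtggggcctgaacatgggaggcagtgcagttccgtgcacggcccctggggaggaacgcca
Tspo, chr15:83398364-83398663: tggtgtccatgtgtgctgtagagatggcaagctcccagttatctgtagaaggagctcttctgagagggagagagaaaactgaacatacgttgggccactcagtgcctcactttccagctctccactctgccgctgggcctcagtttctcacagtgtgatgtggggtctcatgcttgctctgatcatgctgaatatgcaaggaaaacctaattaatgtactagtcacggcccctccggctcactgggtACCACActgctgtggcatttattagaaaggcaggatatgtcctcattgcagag
In the last 2 sequences, from the members with the most H3K27me3, capitals mark the CpG dinucleotides, which numbered 14 at Tal1 and 36 at Kcnk3. The median over all members was 3 CpG in 300 bases.
Tal1, chr4:114736180-114736479: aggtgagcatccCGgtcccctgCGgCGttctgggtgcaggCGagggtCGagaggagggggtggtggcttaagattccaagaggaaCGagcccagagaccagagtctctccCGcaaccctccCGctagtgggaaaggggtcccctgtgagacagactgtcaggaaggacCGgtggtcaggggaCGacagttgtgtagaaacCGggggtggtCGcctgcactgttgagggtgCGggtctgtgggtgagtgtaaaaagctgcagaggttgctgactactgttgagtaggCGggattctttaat
Kcnk3, chr5:30924615-30924914: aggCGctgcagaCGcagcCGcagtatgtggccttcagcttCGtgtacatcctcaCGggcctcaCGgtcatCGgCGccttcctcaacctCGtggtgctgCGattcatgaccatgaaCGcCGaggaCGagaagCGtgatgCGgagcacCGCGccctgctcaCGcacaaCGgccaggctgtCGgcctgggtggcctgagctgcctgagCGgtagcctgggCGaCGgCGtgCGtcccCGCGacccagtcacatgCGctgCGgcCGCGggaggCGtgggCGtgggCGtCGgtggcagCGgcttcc
No base of the Cradd sequence is in capitals, so none of these letters was found in the window with the most H3K4me1. The Sh3pxd2a sequence holds 1 match to the NF1 motif and 2 to the Runx site.

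Members carried H3K4me2 besides H3K4me1, little H3K27me3, and H3K36me3 according to where they lay. Values are fold enrichments, the reads per bp of an interval over the mean of the library on chromosomes 1 to 19 and X, and intervals are at 95% and cover counting error only. In the myoblast libraries the median over members was 10.2 for H3K4me1, 3.98 (3.93 to 4.06) for H3K4me2, 1.60 for H3K4me3, 3.72 for H3K27ac, 0.915 (0.896 to 0.928) for H3K27me3 and 1.40 (1.37 to 1.43) for H3K36me3. In the myotube libraries it was 4.62 for H3K4me1, 2.46 (2.40 to 2.52) for H3K4me2, 1.32 for H3K4me3, 1.95 for H3K27ac, 0.949 (0.932 to 0.963) for H3K27me3 and 1.42 (1.37 to 1.46) for H3K36me3. By the median member H3K27me3 was just under the genome mean in both states, while summed over members it was 1.06-fold (1.05 to 1.07) in myoblasts and 1.16-fold (1.14 to 1.17) in myotubes. H3K4me2 was above the mean in both states by either measure, with sums of 5.01 and 3.03-fold. A member was 1312 bp wide at the median (quartiles 1130.5 and 1611), the widest was 5043 bp, and all together covered 12.1 Mb. At these widths the median member had 35 reads of H3K4me1, 9 of H3K4me2, 4 of H3K27ac, 3 of H3K27me3 and 5 of H3K36me3 in the myoblast libraries, so that sums over members are far more precise than the value of any member.

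**Figure D1:**
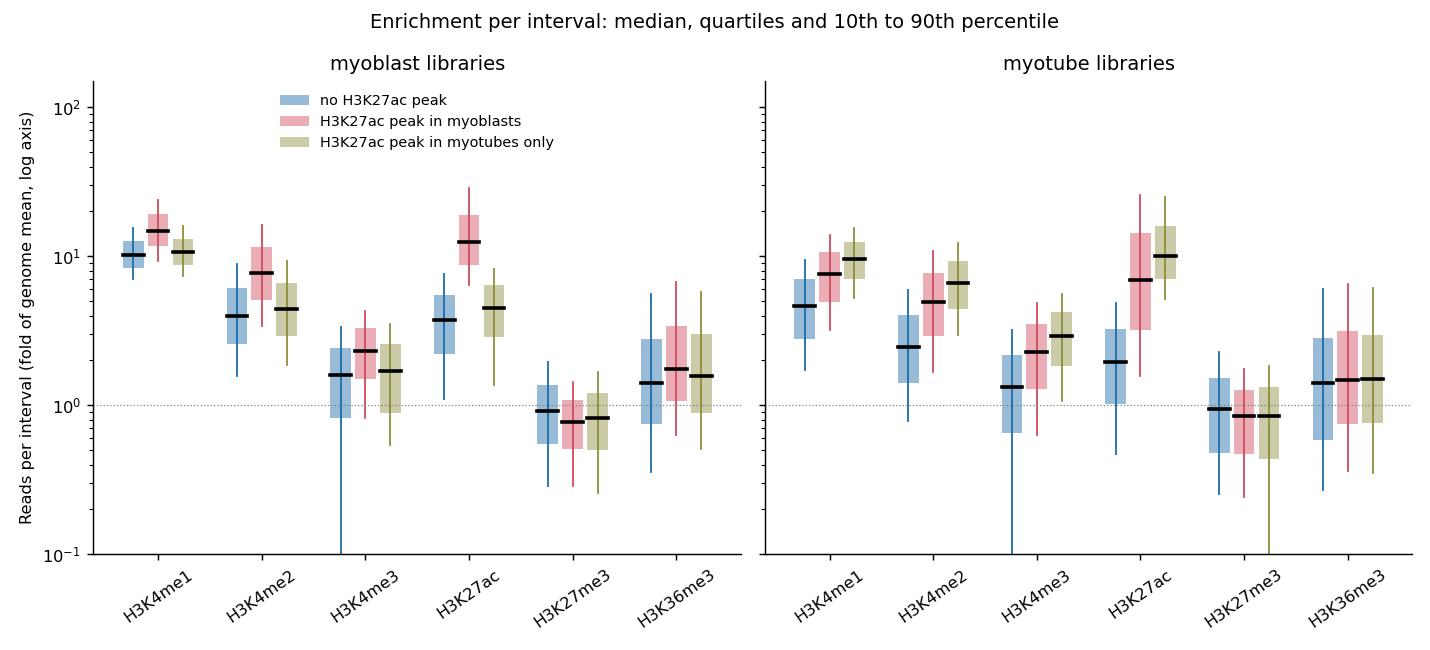
Fold enrichment per interval (reads per bp over the genome mean, log axis) of 6 marks in the myoblast libraries (left) and the myotube libraries (right), for the 8319 intervals without an H3K27ac peak, the 8475 with one in myoblasts and the 2641 with one in myotubes only. Bars are quartiles, lines the 10th to 90th percentile and black marks the median, and lines that reach 0 end at the foot of the axis. The intervals without an H3K27ac peak have a median H3K4me2 of 3.98 and 2.46 and a median H3K27me3 just below 1 in both panels.

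Absence of an H3K27ac peak was not absence of H3K27ac reads, so the members are called here intervals without a peak and not unacetylated. Summed over members, H3K27ac was 4.16-fold (4.11 to 4.20) in myoblasts and 2.39-fold (2.37 to 2.41) in myotubes, against 16.7-fold and 11.7-fold in the distal intervals with a myoblast H3K27ac peak. In the myoblast library 478 members (5.75%) had no H3K27ac read, 1837 (22.1%) were under 2-fold, 4000 (48.1%) had a lower bound above the genome mean and 2652 (31.9%) were at 5-fold or more. In the myotube library 400 had no read, 4280 (51.4%) were under 2-fold and 754 (9.06%) were at 5-fold or more. The highest H3K27ac of a member was 18.0-fold in myoblasts, from 15 reads, and 13.3-fold in myotubes, from 31 reads. Only 39 members had no H3K27ac read in either library, and 1113 (13.4%) were under 2-fold in both. The depth limits these counts, since 0 reads over the median width allows up to 3.15-fold in the myoblast H3K27ac library (3 reads) and up to 1.24-fold in the deeper myotube one.

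The surroundings of the members had nearly as much H3K27ac. In the 5 to 25 kb on both sides of the members, H3K27ac was 3.48-fold in the myoblast library, so that the members were 1.2 times their flanks, and in the myotube library they were 0.847 times their flanks. For H3K4me2 the same ratio was 1.61 in myoblasts and 1.24 in myotubes. It was 0.902 and 0.938 for H3K27me3, and 1.16 and 1.17 for H3K36me3. A member lay 5955 bp at the median from the nearest H3K27ac peak of either state.

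The marks differed with that distance. Within 2 kb of an H3K27ac peak were 2096 members (25.2%), with a summed H3K27ac of 4.56-fold (4.47 to 4.65) in myoblasts, while the 1779 (21.4%) over 20 kb away had 3.74-fold (3.66 to 3.83). H3K36me3 was also higher near such peaks, at 3.31-fold (3.27 to 3.35) within 2 kb and 1.29-fold (1.26 to 1.32) beyond 20 kb. H3K4me2 and H3K27me3 had the other order in myoblasts. H3K4me2 was 4.29-fold (4.24 to 4.35) within 2 kb, 5.00-fold between 2 and 20 kb and 5.93-fold (5.86 to 6.01) beyond. H3K27me3 was 0.891-fold (0.871 to 0.911), 1.04-fold and 1.34-fold (1.32 to 1.37). In myotubes H3K27me3 and H3K36me3 had the same order as in myoblasts, while H3K4me2 was turned, at 3.17-fold (3.12 to 3.21) within 2 kb, 3.06-fold between 2 and 20 kb and 2.78-fold (2.73 to 2.83) beyond. The members over 20 kb from an H3K27ac peak therefore had the most H3K27me3 and the least H3K36me3 of the 3 distance classes in both states, and the most H3K4me2 in myoblasts only.

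Around the midpoints, all 12 libraries had more reads in the central 500 bp than at 0.7 to 1.2 kb on both sides. The ratio of centre to sides in myoblasts was 3.07 for H3K4me1, 3.26 for H3K4me2, 1.63 for H3K4me3, 2.15 for H3K27ac, 1.12 for H3K27me3 and 1.28 for H3K36me3. In myotubes it was 1.71, 1.86, 1.54, 1.69, 1.14 and 1.34 in the same order. Against these sides the ratio was highest for H3K4me2 in both states. The sides themselves lay below the level 4 to 5 kb away for every mark but H3K4me1. Against that outer level the ratio in myoblasts was 3.23 for H3K4me1, 1.90 for H3K4me2, 1.02 for H3K4me3, 1.25 for H3K27ac, 0.973 for H3K27me3 and 1.22 for H3K36me3, and in myotubes it was 1.89, 1.38, 0.966, 0.936, 1.0 and 1.22. On this scale H3K4me1 had the highest ratio in both states, H3K27me3 at the centre was no higher than around it, and myotube H3K27ac and H3K4me3 were below their surroundings. GC content was 49.7% in the central 300 bases and 46.3% in windows 20 kb away at the median. The part of GC content in these ratios was not tested.

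**Figure D2:**
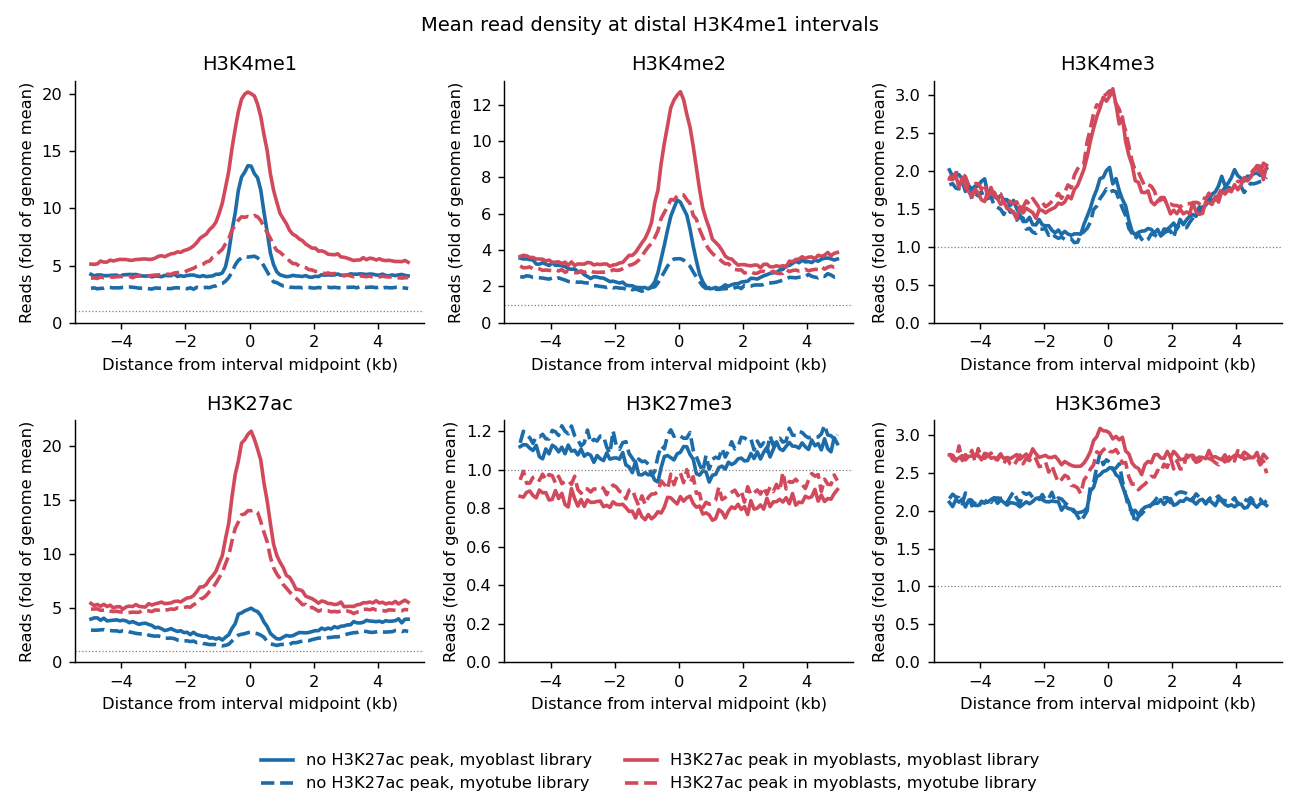
Mean read density (fold of the genome mean) within 5 kb of the interval midpoint for 6 marks, in the intervals without an H3K27ac peak (blue) and those with a myoblast H3K27ac peak (red), in the myoblast library (solid) and the myotube library (dashed). At the centre, H3K27ac in myoblasts is 4.85-fold in the former and 20.9-fold in the latter, and H3K4me2 is 6.49-fold and 12.4-fold. H3K27me3 stays near 1 in the former throughout.

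H3K4me2 peaks covered a minority of the members. In myoblasts 1527 members (18.4%, interval 17.5 to 19.2) overlapped an H3K4me2 peak, against 53.6% of all 30521 wide H3K4me1 intervals. Members also had less H3K4me1 than the group with a myoblast H3K27ac peak. Both were therefore split by the quartiles of H3K4me1 over all distal intervals, at 9.46, 12.2 and 16.2-fold. From the lowest to the highest of these 4 classes, the share of members in an H3K4me2 peak was 11.3, 17.3, 24.8 and 42.7%, and that of the group with H3K27ac peaks was 34.7, 46.0, 59.0 and 82.6%. The median H3K4me2 was 2.97, 3.99, 5.20 and 7.35-fold in members, 4.28, 5.41, 6.98 and 10.5-fold in that group and 3.20, 4.37, 5.68 and 7.34-fold in the group with myotube-only H3K27ac peaks. Within these classes the members thus had less H3K4me2 than the group with myoblast H3K27ac peaks and were near that with myotube-only peaks. They were also narrower than the former (1231 to 1459 bp against 1382 to 2231 bp), and in the open top class their H3K4me1 was lower (18.1 against 20.1-fold at the median). Across the 8319 members, which share libraries, widths and base composition between marks, Spearman's rho was 0.46 between H3K4me1 and H3K4me2 and 0.24 between H3K4me2 and H3K27ac.

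Single members are named below for extreme values, mostly in a myoblast library, or for the largest change of a mark. Their values in both states are a description, since the choice among 8319 members itself favours a difference between the libraries and the intervals do not cover that choice. The most H3K4me2 lay in an intergenic member 23634 bp from the TSS of Mga, a T-box factor that pairs with Max, at chr2:119697954-119699330. It had 231 reads in myoblasts, a fold of 100 (87.5 to 114), and 38 reads in myotubes, a fold of 14.8 (10.5 to 20.4). Its other marks in myoblasts were 23.5-fold for H3K4me1, 8.04 for H3K4me3, 14.0 for H3K27ac, 5.29 for H3K27me3 and 1.85 for H3K36me3. In myotubes these were 2.07, 5.63, 1.97, 2.22 and 1.72. H3K4me2 there was thus several times H3K4me1, the reverse of the members as a whole. An intron of Ttll8, a tubulin glycylase, had the next highest H3K4me2, 70.1-fold (60.9 to 80.4) from 205 reads in myoblasts and 5.56-fold (3.29 to 8.78) from 18 in myotubes.

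The highest H3K4me1 of a member was in an intron of Cradd, a death-domain adaptor, at chr10:94657393-94658476, whose centre is printed above. It had 90 reads of H3K4me1 in myoblasts, a fold of 32.8 (26.4 to 40.3), and 27 in myotubes, a fold of 10.2 (6.69 to 14.8). H3K4me2 was 13.7-fold and 4.96-fold, H3K4me3 0.851 and 2.15, H3K27ac 2.54 and 1.5, H3K27me3 2.02 and 0.941, and H3K36me3 1.34 and 0.547, in myoblasts and in myotubes. It was therefore a member strong in both H3K4 methylations and, at 2 and 3 reads, weak in H3K27ac. A coding exon of Elfn2, which encodes a leucine-rich-repeat membrane protein of synapses, followed with 32.7-fold (28.6 to 37.3) from 225 reads. Elfn2 had 4.84-fold H3K27me3 (3.39 to 6.69) and 8.62-fold H3K27ac without a peak of either.

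H3K27me3 was rare at the members. A myoblast H3K27me3 peak overlapped 58 members (0.697%, interval 0.530 to 0.900), where 0.754% of all wide intervals did, 0.0708% (0.0260 to 0.154) of the group with myoblast H3K27ac peaks and 0.227% (0.0834 to 0.494) of that with myotube-only peaks. A myotube H3K27me3 peak overlapped 27 members (0.325%), with 0.216, 0.153 and 0.0379% in the same order. There were 9 members in both, with no matching count over all wide intervals given here. Of the 58, 40 (69.0%) were also in an H3K4me2 peak, 18 were not, and none was in an H3K36me3 peak. The same shares among the 230 wide intervals in a myoblast H3K27me3 peak are not given here. A myoblast H3K4me2 peak overlapped 18.4% of all members and 53.6% of all wide intervals. Summed over the 40, myoblast H3K4me2 was 17.4-fold (16.6 to 18.3), H3K27me3 6.29-fold (5.91 to 6.69), H3K27ac 2.21-fold (1.79 to 2.71) and H3K36me3 1.06-fold (0.907 to 1.23). In the myotube libraries the same 40 had 4.30-fold H3K4me2 (3.92 to 4.70), 4.14-fold H3K27me3 (3.77 to 4.52), 1.30-fold H3K27ac and 1.55-fold H3K36me3 (1.31 to 1.81). The peaks that chose these 40 are from the same myoblast libraries, so their high H3K4me2 and H3K27me3 there, and lower values elsewhere, are a description. Summed over all members, myoblast H3K27ac was 4.16-fold.

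The 58 members were rich in GC, with a median of 55.4% against 48.9% for all members, and held 8 CpG per 300 bases at the median against 3. Of the 8319 members, 16 met a CpG-island criterion of 55% GC and an observed-to-expected CpG ratio of 0.65, where 275 of the 30521 wide intervals did and 0 in either group with H3K27ac peaks. All 16 were in an H3K4me2 peak and 5 in an H3K27me3 peak. The 58 had 55 different nearest genes, of which Cbx8, a Polycomb subunit, and Elfn2 and Glis1 each had 2 such members. For 29 of the 58 the promoter of the nearest gene was in an H3K27me3 peak too, where 7.45% of all members had such a promoter.

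The most H3K27me3 was in an intron of Tal1, a basic helix-loop-helix factor of blood cells, at chr4:114735739-114736921, the sequence with 14 CpG above. It had 45 reads of H3K27me3 in myoblasts, a fold of 13.9 (10.1 to 18.6), and 7 in myotubes, a fold of 3.02 (1.21 to 6.22). H3K4me2 was 14.6-fold (9.78 to 21.0) in myoblasts and 8.18-fold (4.85 to 12.9) in myotubes. H3K4me1 was 6.34 and 1.03-fold, H3K4me3 3.90 and 3.28, H3K27ac 1.16 and 0.915, and H3K36me3 0.615-fold in myoblasts with 0 reads in myotubes, where 3 reads were the limit. The ratio was 0.218 (0.0828 to 0.486) for H3K27me3, the mark that picked this member, and 0.560 (0.293 to 1.04) for H3K4me2.

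A coding exon of Kcnk3, a background potassium channel, had 11.4-fold H3K27me3 (7.79 to 16.1) from 32 reads without a called peak, 30.3-fold H3K4me2 (22.6 to 39.7) and 36 CpG in its central 300 bases. Its H3K27me3 in myotubes was 4.48-fold from 9 reads. Of the members in peaks of both H3K4me2 and H3K27me3, those with the most H3K4me1 were introns of Glis1, a zinc-finger transcription factor, and Srcin1, a regulator of the kinase Src. Glis1 had 4.53-fold H3K27me3 (3.17 to 6.27) in myoblasts and 6.51-fold (4.59 to 8.98) in myotubes, while H3K4me2 was 14.8-fold (11.6 to 18.6) and 2.04-fold (1.02 to 3.65). Srcin1 had 6.56-fold H3K27me3 (4.88 to 8.63) and 7.56-fold (5.45 to 10.2), with H3K4me2 at 8.62-fold and 1.33-fold. Peaks of both marks in myoblasts chose these members, so a lower myotube value of either is no finding.

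H3K36me3 followed the genes. Of the members, 4611 (55.4%, interval 54.4 to 56.5) had their midpoint inside a protein-coding gene, where the median H3K36me3 was 2.17-fold (2.10 to 2.24) in myoblasts, and outside it was 0.982-fold (0.957 to 1.0). A myoblast H3K36me3 peak overlapped 714 members (8.58%, with 15.5% of all wide intervals), of which 667 (14.5% of those in genes) lay inside a gene and 47 (1.27%) outside. A myotube H3K36me3 peak overlapped 812 members (9.76%, also with 15.5% of all wide intervals). In both libraries 427 members were in an H3K36me3 peak, 59.8% of the myoblast and 52.6% of the myotube ones. The same shares were 19.8 and 43.4% for H3K4me2 and 15.5 and 33.3% for H3K27me3, from lists that differ in make between the states. These overlaps are given for the members alone, with no share over all wide intervals beside them. Across members, Spearman's rho between the libraries of the 2 states was 0.60 for H3K36me3, 0.29 for H3K4me2 and 0.27 for H3K27me3, as a description of points that share widths and base composition.

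Inside genes, the level depended on the promoter of the host gene. With an H3K4me3 peak at that promoter (3517 members) the median H3K36me3 was 2.84-fold (2.76 to 2.94), and without one (1094 members) it was 0.968-fold (0.899 to 1.01). With the gene divided into 4 parts of equal length from TSS to end, members in genes with the promoter peak had 2.65, 2.76, 3.03 and 3.24-fold, and 13.5, 15.5, 21.9 and 26.5% of them were in an H3K36me3 peak. Those in genes without the promoter peak stayed between 0.856 and 1.01-fold. The members held about the H3K36me3 of their host genes: the reads in them were 1.02 times (1.02 to 1.03) those that the density of the whole host gene gives in myoblasts and 1.01 times (1.0 to 1.02) in myotubes. In myoblasts H3K27me3 had the other order, with a median of 0.849-fold (0.820 to 0.877) inside genes and 0.971-fold (0.952 to 0.995) outside, and H3K4me2 was 3.87-fold (3.80 to 3.95) inside and 4.14-fold (4.05 to 4.25) outside. In myotubes both were higher inside genes, H3K27me3 at 0.978-fold (0.956 to 0.996) against 0.918 (0.899 to 0.939) and H3K4me2 at 2.57-fold (2.51 to 2.64) against 2.33 (2.23 to 2.40).

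**Figure D3:**
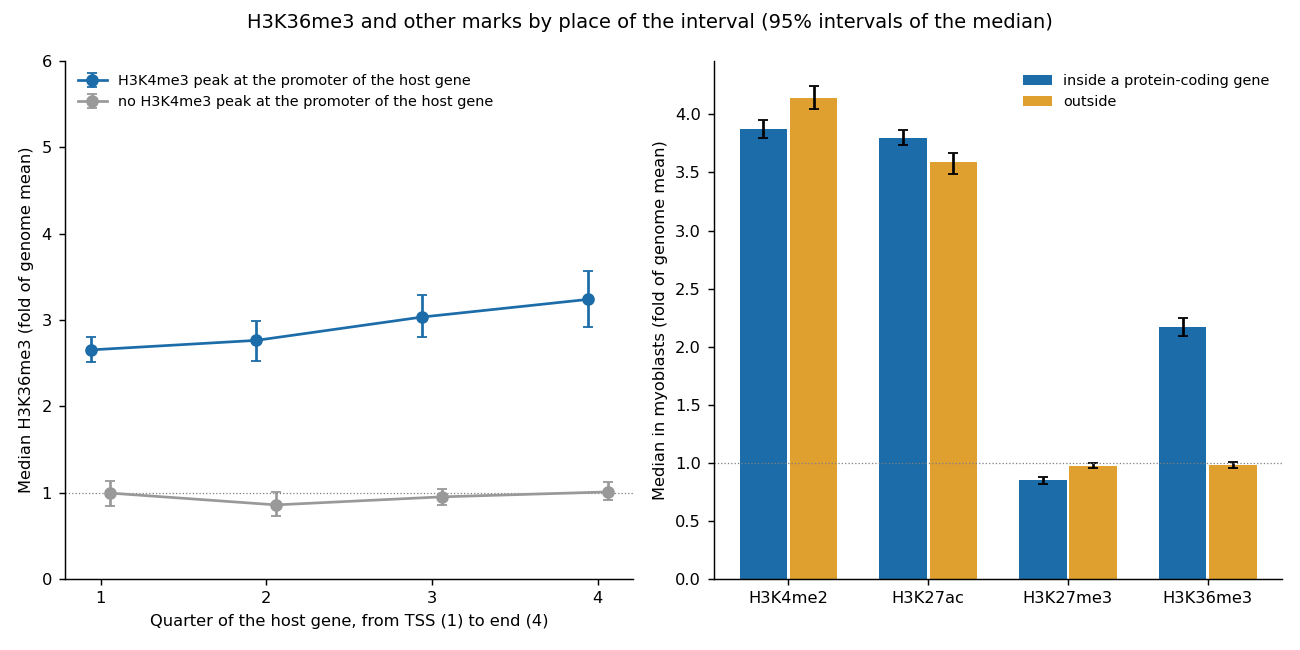
Left, median H3K36me3 fold enrichment of members in myoblasts by position in the host gene (4 parts of equal length, TSS to end), for host genes with (blue) and without (grey) an H3K4me3 peak at the promoter. Right, median fold enrichment of 4 marks for members inside a protein-coding gene and outside. Error bars are 95% intervals of the median. H3K36me3 goes from 2.65 to 3.24-fold along genes with the promoter peak, stays near 1 in the others, and is 2.17-fold inside genes against 0.982-fold outside.

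The highest H3K36me3 was in an intron of Tenc1, a tensin of focal adhesions, at chr15:101941840-101943831, with 234 reads in myoblasts, a fold of 42.7 (37.4 to 48.6), and 129 in myotubes, a fold of 38.4 (32.1 to 45.6). There H3K4me1 was 14.7 and 6.35-fold, H3K4me2 10.8 and 3.51, H3K4me3 0.926 and 1.17, H3K27ac 8.98 and 2.17, and H3K27me3 1.46 and 3.84, in myoblasts and in myotubes. A coding exon of Slc38a2, a transporter of neutral amino acids, had 36.3-fold (30.2 to 43.1) and 36.5-fold (28.9 to 45.5). Both members had the same H3K36me3 in the 2 libraries within counting error.

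Of the 8319 members, 6144 (73.9%) were in no myoblast peak of H3K4me2, H3K27me3 or H3K36me3, 1403 (16.9%) in an H3K4me2 peak only, 630 (7.57%) in an H3K36me3 peak only, 84 in both of these, 40 in H3K4me2 and H3K27me3 peaks and 18 in an H3K27me3 peak only. These classes were counted for the members alone, with no share over all wide intervals beside them. By single mark, 53.6% of all wide intervals overlapped a myoblast H3K4me2 peak, 0.754% an H3K27me3 peak and 15.5% an H3K36me3 peak. Of the 630 members, 93.5% were inside genes, against 49.3% of the 1403. Their median H3K4me2 was 3.15-fold, near the 3.51-fold of the members in no peak, and their median H3K36me3 was 8.68-fold. Among the 84 members in H3K4me2 and H3K36me3 peaks, those with the most H3K4me1 were introns of Cd9, a tetraspanin of the cell surface, and Tspo, a protein of the outer mitochondrial membrane. Cd9 had 29.7-fold H3K4me1, 8.08-fold H3K4me2 (5.18 to 12) and 12.9-fold H3K36me3 (9.95 to 16.6) in myoblasts, and 8.29, 3.65 (1.88 to 6.37) and 9.05-fold (5.96 to 13.2) in myotubes. Tspo had 28.4-fold H3K4me1, 13.6-fold H3K4me2 (10.3 to 17.7) and 8.32-fold H3K36me3 (6.27 to 10.8) in myoblasts, and 15.4, 7.83 (5.45 to 10.9) and 3.70-fold (2.07 to 6.10) in myotubes. Myoblast levels and peaks of these 3 marks chose both members, so their lower myotube values are no finding.

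Most members had less H3K4me1 in the myotube library. The median ratio of myotubes to myoblasts, scaled by total reads with 1 read added to each count, was 0.455 (0.447 to 0.463). The members were chosen for H3K4me1 in myoblasts, so this ratio is a description. Of 8243 members with at least 20 H3K4me1 reads in both libraries together, 9 (0.109%) were 2-fold or more higher in myotubes and 4636 (56.2%) lower, where all wide intervals had 0.371% and 43.3%. The median ratio was 0.501 (0.494 to 0.507) in the group with myoblast H3K27ac peaks and 0.876 (0.861 to 0.897) in the group with H3K27ac peaks in myotubes only. In the classes of H3K4me1 used above, from lowest to highest, it was 0.516, 0.462, 0.404 and 0.360 in members. In the group with myoblast H3K27ac peaks it was 0.652, 0.583, 0.516 and 0.443, higher in each class.

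The ratio of H3K4me2, whose peaks the rule did not use, was 0.632 (0.618 to 0.645) at the median. It is a description too, since H3K4me2 in myoblasts went with the H3K4me1 that chose the members (Spearman's rho 0.46). Of 3292 members with 20 H3K4me2 reads or more, 170 (5.16%) were at least 2-fold higher in myotubes and 1254 (38.1%) lower. Of all wide intervals, 7.83% were higher and 34.5% lower. The median was much the same, 0.627 (0.616 to 0.638), in the group with myoblast H3K27ac peaks, and 1.35 (1.33 to 1.40) in that with myotube-only H3K27ac peaks. The last group was chosen by an H3K27ac peak in myotubes and none in myoblasts, so its ratio is also a description. H3K36me3 was balanced, with a median of 1.09 and, of 1895 members, 242 (12.8%) higher and 231 (12.2%) lower, against 7.81% and 12.4% of all wide intervals. H3K27me3 had a median ratio of 1.12, and only 317 members had 20 reads of it. When the libraries were scaled by reads in 10 kb windows without peaks, the median ratio was 0.368 for H3K4me1, 0.406 for H3K4me2 and 1.21 for H3K36me3, so the size of the fall, but not its direction, depends on the scale.

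**Figure D4:**
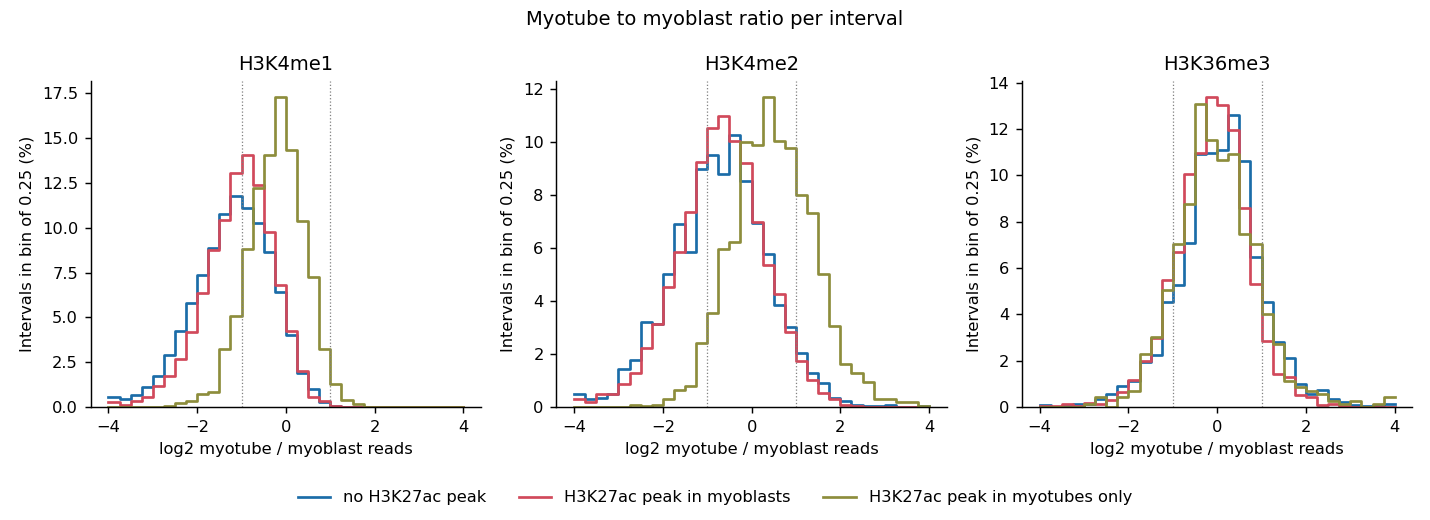
Distribution of the log2 ratio of myotube to myoblast reads (scaled by total reads, 1 read added) for H3K4me1, H3K4me2 and H3K36me3, in intervals with 20 reads or more, as percent of intervals per bin of 0.25. Colours are the groups without an H3K27ac peak, with one in myoblasts and with one in myotubes only, and dotted lines mark 2-fold. The members lie left of 0 for H3K4me1 and H3K4me2 (median ratios 0.455 and 0.632 over all members), and around 0 for H3K36me3.

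A minority of the members was called in myotubes as well. A myotube H3K4me1 peak overlapped 2081 members (25%), where 51.5% of all wide intervals did, and a myotube H3K4me2 peak overlapped 696 (8.37%), where 46.2% did. The myotube list is of another make, with a median peak width of 117 bp against 933 bp in the myoblast list. The count rests on narrow and low peaks, since it was 271 with peaks of score 100 or more, 11 where a peak had to cover 50% of the member and 2 with peaks of 500 bp or more, and the counts by gene given for this list share that limit. The 2081 members were inside genes more often (64.0% against 52.6% of the other 6238) and had more H3K36me3 in myoblasts (median 1.82-fold, 1.73 to 1.95, against 1.31, 1.28 to 1.34). Their H3K4me2 in myoblasts was 4.15-fold (4.02 to 4.26) against 3.94 (3.86 to 4.0), and their H3K27ac in myotubes was 3.10-fold (3.00 to 3.20) against 1.59 (1.56 to 1.63).

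For H3K4me1, the largest rise was in an intron of Sh3pxd2a, a scaffold of podosomes, at chr19:47400539-47401546, with 24 reads (9.40-fold, 6.02 to 14.0) in myoblasts and 68 (27.5-fold, 21.4 to 34.9) in myotubes. H3K4me2 went from 1 read to 12 (ratio 10.8, 1.60 to 463), H3K27ac was 5.46-fold from 4 reads and 8.59-fold from 16, H3K27me3 had 2 reads and 0, H3K4me3 was 1.83 and 3.08-fold, and H3K36me3 was 4.69 and 4.12-fold. This member was in a myotube H3K4me1 peak.

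For H3K4me2, an intron of Fibcd1, a receptor that binds acetylated sugars, went from 36 reads (16.6-fold, 11.6 to 22.9) to 0. That is at least 13.3-fold lower only if 3 reads are the limit of 0 and the 36 reads carry no error. With the error of both counts, the interval allows a ratio of up to 0.0974. An intron of Ube2n, a ubiquitin-conjugating enzyme, went from 2 reads (0.958-fold) to 29 (12.5-fold), a ratio of 13.1 (3.31 to 113), and its H3K4me1 from 7.94 to 14.1-fold (ratio 1.78, 1.06 to 3.03). Ube2n held 4 members, and all 4 were in a myotube H3K4me1 peak. For H3K27me3, a coding exon of Scn8a, a voltage-gated sodium channel, went from 33 reads (9.95-fold) to 4 (1.69-fold), a ratio of 0.170 (0.0437 to 0.477). An intergenic member nearest to Gm10655 went from 9 reads (1.36-fold) to 23 (4.86-fold), a ratio of 3.58 (1.59 to 8.78).

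For H3K36me3, an intron of Igfbp2, which binds insulin-like growth factors, went from 32 reads (8.67-fold, 5.93 to 12.2) to 0. That is at least 6.54-fold lower only by the same limit and if the 32 reads carry no error. With the error of both counts, the interval allows a ratio of up to 0.199. H3K4me1 at the Igfbp2 member was 11.8 and 9.12-fold (ratio 0.774, 0.466 to 1.28), and the member was in a myotube H3K4me1 peak. A coding exon of Casz1, a zinc-finger transcription factor, went from 3 reads (0.987-fold) to 59 (31.7-fold, 24.1 to 40.9), a ratio of 32.1 (10.5 to 160), while its H3K4me1 went from 14.7 to 4.06-fold. At Casz1 H3K36me3 and H3K4me1 thus went in opposite directions, and at Igfbp2 H3K4me1 was alike within counting error. The widest member, 5043 bp in an intron of Ndrg4, had H3K4me1 at 11.3 and 10.8-fold and H3K4me2 at 5.20 and 6.51-fold, alike within counting error. Its H3K27ac was lower in myotubes, at 5.46 and 2.58-fold (ratio 0.472, up to 0.901), and its H3K36me3 was higher, at 6.35 and 9.64-fold (ratio 1.52, 1.11 to 2.08). The next, 4928 bp near P4ha1, the catalytic subunit of a collagen prolyl hydroxylase, had 21.3 and 4.88-fold H3K4me1 and 17.1 and 2.40-fold H3K4me2.

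**Figure D5:**
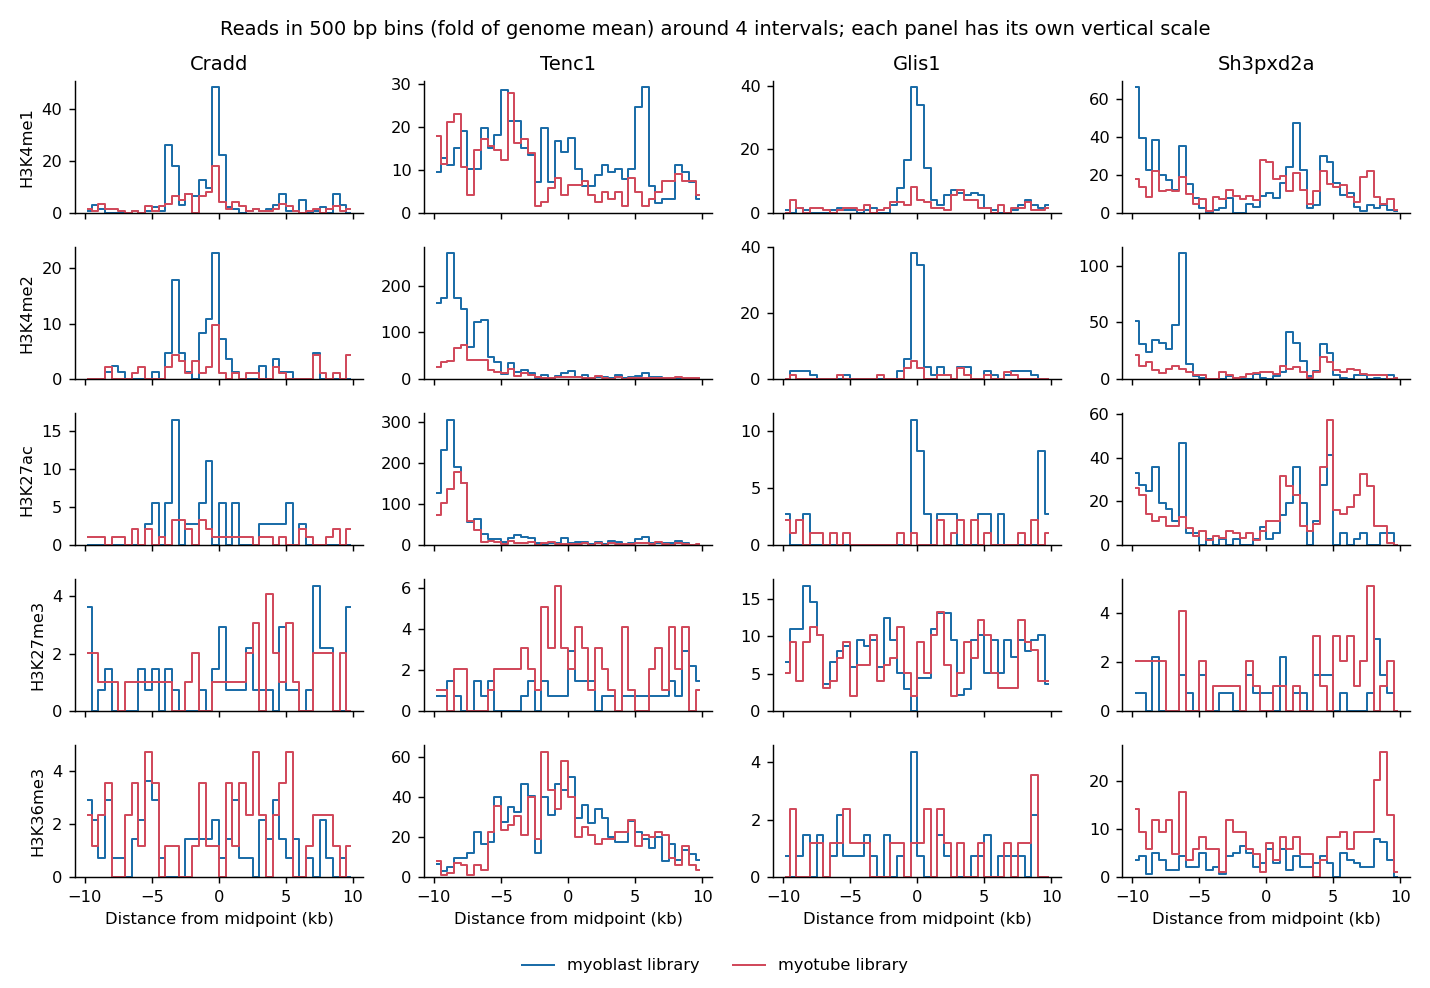
Reads per 500 bp bin (fold of the genome mean) within 10 kb of the midpoint of the members at Cradd, Tenc1, Glis1 and Sh3pxd2a, for 5 marks in the myoblast (blue) and myotube (red) libraries, each panel with its own vertical scale. The Cradd and Glis1 members stand out in myoblast H3K4me1 and H3K4me2, the Tenc1 member lies in broad H3K36me3 of both libraries, and the Sh3pxd2a member has more myotube than myoblast H3K4me1.

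Members lay mostly in introns and between genes. By midpoint, 4341 (52.2%) were in introns of protein-coding genes, 3462 (41.6%) were intergenic, 246 were in non-coding genes, 127 in UTRs, 123 in coding exons and 20 in other exons. The share inside protein-coding genes, 55.4%, was 53.8% in the group with myoblast H3K27ac peaks and 55.7% in that with myotube-only peaks, and such genes covered 39.5% of the bases of chromosomes 1 to 19. The nearest protein-coding TSS was 22025 bp away at the median (quartiles 9402 and 53308), against 23584 and 21725 bp in these groups. By these 2 measures the members lay much as the distal intervals with H3K27ac peaks did. Density was 3.48 members per Mb, from 2.43 on chromosome 3 to 5.46 on chromosome 15.

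Members were less clustered than the intervals with myoblast H3K27ac peaks. With gaps of up to 10 kb, 2900 members (34.9%) were in 1240 clusters, against 51.0% of those 8475 intervals, a group of like size. Of the clusters, 21 had 5 members or more, against 99. In the smaller group of 2641 intervals with myotube-only peaks, 22.6% were in clusters and 0 clusters had 5 or more. The largest cluster of members held 8 within 28.7 kb of Map4k4, a Ste20-family kinase, at chr1:39981415-40010138, with H3K4me1 from 6.31 to 18.1-fold and 7 of the 8 in a myotube H3K4me1 peak. The next held 7 in Sorcs2, a sortilin-family receptor, with H3K4me1 from 6.65 to 13.3-fold and 3 in a myotube peak. Clusters of 6 lay at Atp2b4, a calcium pump of the plasma membrane, and at Ltbp2, a matrix protein, among others, with 3 and 1 members in a myotube peak.

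At least 1 member lay in 2386 of 21418 protein-coding genes (11.1%), and 183 genes held 5 or more. These genes were long, with a median of 72.7 kb against 15.5 kb for all, and 1189 (49.8%) of them also held an interval with a myoblast H3K27ac peak, where 9.78% of all genes did. The most members were in Gm20388 (87) and Fgfr2 (23), whose annotated spans of 4435 and 3009 kb run across other genes. They were followed by Hivep3, a zinc-finger factor, and Sorcs2 with 18 each, Agap1, an Arf GTPase activator, with 16, Syn3, a synapsin, with 14, Map4k4 with 13, and Ext1, a heparan sulfate polymerase, Nxn, nucleoredoxin, and Sik3, a salt-inducible kinase, with 12 each. Their H3K36me3 differed: the whole gene had 7.84-fold at Map4k4, 7.11 at Ext1 and 6.18 at Sorcs2, and 1.39 at Syn3 and 0.708 at Hivep3, which had an H3K27me3 peak at their promoters. The members in them followed, with a median H3K36me3 of 5.13-fold at Map4k4, 6.24 at Ext1 and 4.19 at Sorcs2, and 1.2 at Syn3 and 0.890 at Hivep3. Median H3K4me1 was alike in these 5 genes, between 10.03 and 10.95-fold.

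Per 100 kb of gene, the densest were Gdpd5, a glycerophosphodiesterase (12.6), Ccdc85c (11.6), Tspan15, a tetraspanin (10.9), Map4k4 (10.4) and Dap, a death-associated protein (10.0), then Dusp22, a phosphatase, Pvrl1, a nectin, Igsf3, Smurf1, a ubiquitin ligase of the TGF-beta pathway, and Col18a1, a basement-membrane collagen, with 8.74. All 10 had an H3K4me3 peak at the promoter in myoblasts and none an H3K27me3 peak. In Map4k4 11 of its 13 members were in a myotube H3K4me1 peak, and in Tspan15 4 of 5, while in Col18a1 none of 10 was, and its median H3K4me1 went from 13.3 to 2.39-fold. Members in Dap had a median H3K4me1 of 15.7-fold and H3K36me3 of 10.8-fold, and those in Igsf3 had 9.49-fold and 1.68-fold.

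The promoter of the nearest gene was in a myoblast H3K4me3 peak for 70.3% of members, and in an H3K27me3 peak for 7.45%. These shares were 74.7 and 4.44% for the group with myoblast H3K27ac peaks, 74.6 and 4.09% for the one with myotube-only peaks, and 49.7 and 6.41% of all genes. At the 620 members with an H3K27me3 promoter the median H3K27me3 was 1.34-fold (1.26 to 1.41), H3K36me3 0.846 (0.784 to 0.907) and H3K27ac 3.21 (2.90 to 3.56). At the 5686 with an H3K4me3 peak only, these were 0.848 (0.822 to 0.870), 1.73 (1.69 to 1.78) and 3.79 (3.73 to 3.86). At the 2013 with neither, they were 0.979, 1.02 and 3.62. H3K4me2 was 4.59-fold (4.28 to 4.85), 3.88-fold (3.80 to 3.95) and 4.11-fold (4.0 to 4.27), so that members near H3K27me3 promoters had more of both H3K27me3 and H3K4me2.

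Lists of genes chosen for muscle differed both in how many held a member and in the length of their genes. Of 17 myogenic regulators, 4 held a member, with 4.90 members per Mb of gene, near the 4.88 over all genes. Pax7, the factor of muscle stem cells, held 4 of the 7 members, with H3K4me1 from 6.95 to 12.8-fold, H3K4me2 from 1.5 to 4.70-fold and H3K27me3 from 0.295 to 0.892-fold, and its promoter was in peaks of both H3K27me3 and H3K4me3 in myoblasts. Pax7 also held 4 intervals with myoblast H3K27ac peaks. Of 29 genes of muscle structure, 5 held a member (6.15 per Mb). Ryr1, the calcium release channel of muscle, held 3, with H3K36me3 from 2.34 to 4.12-fold in myoblasts and from 7.25 to 27.9-fold in myotubes, where H3K4me1 went from a median of 9.66 to 4.87-fold.

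Of 18 genes of adhesion, fusion and cytoskeleton, 14 held a member (8.44 per Mb), most in Lpp, a focal adhesion protein, with 9. Of 16 matrix genes 6 did (8.60 per Mb), most in Col4a2, a basement-membrane collagen, with 6. Of 21 genes of TGF-beta, Wnt and Fgf signalling 12 did (10.1 per Mb, of which Fgfr2 had 23 of 49 members). Of 16 regulators of other mesenchymal fates 6 did (6.56 per Mb), with 8 in Runx2, the factor of bone, and Sox9, the factor of cartilage, was the nearest gene of 15 members with none inside its 5.54 kb. In Runx2 the members had 9.22-fold H3K4me1 at the median, 3.73-fold H3K4me2, 0.574-fold H3K27me3 and 3.48-fold H3K36me3.

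Neuronal adhesion and synapse genes, with a median length of 1098 kb, held 0.492 per Mb, with members in 3 of 17 and most in the glutamate receptor Gria1 (5). Of 26 developmental factors under Polycomb 5 held a member (5.26 per Mb). None of 9 housekeeping genes, with a median length of 5.63 kb, held one. Beside these, the intervals with myoblast H3K27ac peaks had 11.9 per Mb in the adhesion genes, 10.5 in the matrix genes and 10.4 in the mesenchymal list. They had 4.10 per Mb in the genes of muscle structure, 4.90 in the myogenic, 10.1 in the signalling, 6.84 in the developmental and 0.541 in the neuronal list. These densities rest on few intervals, such as 22 against 18 members in the matrix genes and 6 against 9 in those of muscle structure, and the differences were not tested.

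For most motifs the share of members with a match in the central 300 bases was close to that of the intervals with myoblast H3K27ac peaks. The E-box was found in 22.6% of members (21.7 to 23.5), 22.9% of the group with myoblast H3K27ac peaks, 22.8% of all wide intervals and 14.6% of windows of the same length 20 kb from members. The AP-1 site was found in 15.1% (14.4 to 15.9), 15.9%, 13.4% and 5.67%. The Runx site was found in 25.7%, 27.1%, 25.5% and 22.3%, the Tead site in 18.3%, 18.9%, 18.4% and 15.4%, the NF1 motif in 18.7%, 16.7%, 17.5% and 14.3%, and the Mef2 core in 1.02%, 1.03%, 1.07% and 2.18%. The matches used both strands, these motifs have different letters and may overlap, and windows 20 kb away had a lower GC content, 46.3%. For the NF1 motif the intervals of the members (17.8 to 19.5) and of the group with myoblast H3K27ac peaks (15.9 to 17.5) did not overlap. In the group with myotube-only peaks the Runx site was found in 28.7% (26.98 to 30.5) against 25.7% (24.8 to 26.6) of members, the E-box in 24.4%, the Tead site in 20.3%, the NF1 motif in 20.4%, the AP-1 site in 13.8% and the Mef2 core in 1.51%. A match describes letters and is no evidence of binding.

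At the thresholds of width and TSS distance the median H3K4me2 changed little, while at that of the H3K27ac peak the median H3K27ac was higher in the intervals left out. The 864 members less than 50 bp over the minimum width had a median H3K4me2 of 3.50-fold, and the 990 otherwise alike intervals less than 50 bp under it had 3.60-fold. The 187 members up to 500 bp beyond the limit of TSS distance had 4.64-fold, and the 208 intervals up to 500 bp inside it had 4.57-fold. Members with an H3K27ac peak within 500 bp (734) had a median H3K27ac of 4.37-fold in myoblasts, and the 78 intervals left out because such a peak reached under 100 bp into them had 5.50-fold.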

How the data were processed

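Reads of 12 ChIP-seq libraries of C2C12 cells were analysed as deposited. The authors aligned 34 bp reads to mm9 with Mosaik and kept unique alignments (stated for the myoblast libraries), and deposited 1 line per read, so each line was 1 count. The authors also deposited MACS peak lists with a score for each peak, the lowest being 50. MACS settings, the use of a control and what the authors merged are not given in the sources used here, and the lists of the 2 states differ in peak width.

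Reads were extended to 150 bp and counted where the midpoint of the extended read fell in an interval or bin. A fold is reads per bp over the library mean per base without N. The annotation was GENCODE on mm9 (NCBIM37), with promoters within 1 kb of a TSS. Sequences are from the same genome. Ratios were scaled by total reads with 1 read added, were counted as changed at 2-fold, and needed 20 reads in both libraries together. Intervals at 95% are exact Poisson for folds, Clopper-Pearson for shares, conditional binomial for ratios and from order statistics for medians. Without replicates no test was made, and the count intervals were tested on simulated data. Myoblast lists of H3K27ac and H3K27me3 were taken by name, not by the sample they came with. The members named have the 2 highest folds of each of 4 marks (20 reads or more), the 2 largest widths, the largest rise and fall of each mark (30 reads or more) and the 2 highest H3K4me1 folds of 2 classes of peaks. A member at 3-fold or more in all 6 myoblast libraries (1 member) was not named. Genes named hold the most members, the most per 100 kb among genes with 5 or more, or the most of a list. One member and a gene that these rules name are not reported here. The members and gene lists were chosen with earlier results of these data known. Counts and intervals were computed in Python 3.11.15 with scipy 1.17.1, pandas 2.3.3 and numpy 2.4.6, and plots were drawn with matplotlib 3.10.9.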

Additional observations from a re-analysis of the deposited data

How the results depend on the processing

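Of 38 alternatives, 14 left their value within 1.5 times or within its interval and 24 moved it, and the cause of these moves was not tested beyond the setting itself. The number of members, 8319, was 24424 at a width of 500 bp or more, 869 at 2 kb or more and 1113 when H3K27ac had to be under 2-fold in both states. It was 11560 with the list that came with the H3K27ac sample. What the members held moved with these rules. With H3K27ac under 2-fold, 2.52% were in an H3K27me3 peak (0.697% of the 8319), 2.96% in an H3K36me3 peak (8.58%) and 12.7% in a myotube H3K4me1 peak (25%), and summed H3K27ac was 0.993-fold. With the other list it was 6.79-fold, and 0% were in an H3K27me3 peak, as that list is the one used here for H3K27me3. The share in an H3K4me2 peak, 18.4%, was 12.1% at 500 bp and 29.3% at 2 kb, where 13.1% were in an H3K36me3 peak and 38.7% in a myotube H3K4me1 peak. Members in a myoblast H3K4me2 peak, 1527, were 607 when a peak had to cover 50% of the member and 497 with peaks of score 100 or more. With that score those in an H3K27me3 peak went from 58 to 25, and those in an H3K36me3 peak from 714 to 369, or 295 with 50% covered. Members in a myotube H3K4me1 peak, 2081, were 11 with 50% covered, 271 with that score and 2 with myotube peaks of 500 bp or more, an alternative chosen after seeing the data, so this count rests on narrow and low peaks. The median H3K4me2 in myoblasts, 3.98-fold, was 4.17 in the 1 kb at the midpoint and 1.95 against the flanks. The summed H3K27ac, 4.16-fold, was 4.46 in that 1 kb, 4.22 with reads not extended, 4.09 with reads extended to 250 bp and 1.15 against the flanks when each flank was weighted by the width of its member (1.2 with equal weights). The median H3K4me1 ratio, 0.455, was 0.501 with libraries thinned to the smallest, 0.368 scaled by windows without peaks and 0.516 with 5 reads added. At 1.5-fold in place of 2-fold, 74 members were higher in myotubes for H3K4me1 (9 at 2-fold), 360 for H3K4me2 (170) and 511 for H3K36me3 (242), and 425 were lower for H3K36me3 (231).

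No paired analysis was possible because each mark and state had 1 library. With no replicate, differences between the states cannot be told apart from differences between libraries, and with no input library, enrichment cannot be told apart from an effect of base composition. The median member had 2 to 9 reads of each mark other than H3K4me1 in the myoblast libraries, so that a member without a peak is not a member without the mark.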
